A study of Homo sapiens with 4 samples.

Results

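The genes described here are 10 amino acid transporters of the plasma membrane, SLC7A11, SLC7A1, SLC7A5, SLC7A6, SLC3A2, SLC38A1, SLC38A2, SLC1A4, SLC1A5 and SLC43A1. They were found by name among the 22361 rows of the deposited table, with 1 row for each gene, and all 10 were among the 14601 rows with enough signal to be tested. RNA came from Jurkat, a human line of T-cell acute lymphoblastic leukaemia, infected with lentivirus carrying an shRNA against GFP (control, 2 libraries) or against ARIEL, a long non-coding RNA (knockdown, 2 libraries). Both groups went through infection and selection in 0.7 µg/ml puromycin for at least 36 h, and cells were harvested at 72 h. The comparison asks which RNAs differ once ARIEL is depleted, in this line alone. The labels name no other shRNA against ARIEL, so effects of the shRNA on other targets cannot be told apart from ARIEL loss. Values are the authors' regularised log (rlog) expression, a log2-scale level in which noisy values are drawn to the mean of their gene, and differences in it are smaller than the fold changes in the authors' deposited table. The labels do not say that replicates were separate cultures, and p-values then measure only the spread between these libraries, which may be technical.

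Dividing T cells and T-cell leukaemias import most of their amino acids. SLC3A2 is the CD98 heavy chain, a glycoprotein that carries several light chains to the cell surface: SLC7A5 (LAT1) for leucine and other large neutral amino acids, SLC7A6 (y+LAT2) for arginine and glutamine exchange, and SLC7A11 (xCT), which takes up cystine in exchange for glutamate and so feeds glutathione synthesis. SLC7A1 (CAT1) imports arginine and lysine without a heavy chain. SLC38A1 and SLC38A2 carry glutamine and small neutral amino acids with sodium, SLC1A4 (ASCT1) and SLC1A5 (ASCT2) exchange small neutral amino acids, SLC1A5 being a main route for glutamine, and SLC43A1 (LAT3) moves branched-chain amino acids by facilitated diffusion. Several of these genes are textbook targets of ATF4, a transcription factor made when amino acids run short, which binds C/EBP-ATF response elements in their promoters and introns.

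The targeted RNA was taken to be the locus XLOC_005968, from background knowledge, since the table does not name ARIEL. Its rlog values were 12.02 and 11.91 (control) and 10.58 and 10.55 (knockdown), the largest fall of all tested rows. Median rlog over tested genes lay between 11.31 and 11.32 in the 4 libraries, and library depth is unknown. All 11 Jurkat and T-cell markers with a row were tested: CD3G, CD2, CD5, CD28 and TAL1 differed by -0.15 to -0.32, CD247, CD7 and LMO1 rose by 0.15 to 0.23, and CD3D, CD3E and LCK were not called. Of 12 markers of other cell types with a row, 5 were tested, and MS4A1, CSF1R, HBG1 and EPCAM are listed at 0. The summed linear level of the list was 2169 and 2284 in the control and 2624 and 2659 in the knockdown libraries, against 259049 to 277801 for the T-cell markers. CD79A makes up most of the sum for other cell types, with rlog values of 10.91 and 10.99 in control and 11.23 and 11.25 in knockdown libraries. In that list CD79A rose by 0.29 ± 0.04 (SE) and KRT8 by 0.07 ± 0.03, and COL1A1 differed by -0.18 ± 0.04. Their part in the transporter results was not tested.

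In the knockdown libraries 8 of the 10 transporter genes fell, 1 rose and 1 was not called (limma, adjusted p under 0.05). Over all tested genes 22.4% fell and 22.1% rose by the same rule, 44.4% in all. The median difference of the 10 genes was -0.19, against 0.00 over all genes tested. The 10 genes were chosen with earlier results of these data known, so their shares and median only describe this list. Of 8 other plasma-membrane amino acid transporters tested, 3 fell and 4 rose, with a median of 0.06. SLC7A11 differed most, and ranked 15 among the falls of all 14601 tested genes, followed by SLC7A1, which ranked 121. In every one of the 10 genes the values of the groups did not overlap, which also held for 70.7% of all tested genes. Both knockdown values lay below both control values in 8, as in 35.1% of all tested genes, and above them in 2, as in 35.6%. In such bulk libraries, fewer cells of a type and less RNA per cell cannot be told apart.

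Because so many of these genes fell together, their promoters were searched for the C/EBP-ATF response element, spelled TGATGNAA, on both strands. RefSeq promoters (build GRCh38.p14, from 250 bases before to 50 after each annotated start) were matched by symbol for 9 of the 10 genes, with SLC7A11 unmatched. The letters were found in 5 of these 9 genes, or 5 of their 16 promoters, compared with 4.46% of 27305 genes and 3.62% of 35116 promoters. All 5 genes fell, as did 2 of the 4 matched genes without these letters, SLC7A5 and SLC38A2. The matches are shown in windows of 30 bases on the gene's own strand, 5′ to 3′, with the match in capitals.
SLC7A1: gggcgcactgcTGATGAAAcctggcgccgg
SLC1A4: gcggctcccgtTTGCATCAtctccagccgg
SLC38A1: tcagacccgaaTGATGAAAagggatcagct
SLC3A2: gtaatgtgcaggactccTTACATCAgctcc
SLC1A5: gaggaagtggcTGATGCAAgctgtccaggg
In SLC7A1 (chr13:29595663-29595692, minus strand) the match begins at base 8 of the transcript. In SLC1A4 (chr2:64989381-64989410, plus strand) the match is on the opposite strand. As printed it starts at base -7 of one of the gene's annotated starts. In SLC38A1 (chr12:46266502-46266531, minus strand) the match begins at base -4 of one of the annotated starts. In SLC3A2 (chr11:62881719-62881748, plus strand) it is on the opposite strand and as printed starts at base 38 of one of the starts. In SLC1A5 (chr19:46784893-46784922, minus strand) it begins at base -97 of an alternative start. SLC7A5, SLC7A6, SLC38A2 and SLC43A1 have no match within their windows, which says nothing about introns or distant sites.

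Over all tested genes with a RefSeq promoter, 32.6% of the 270 that hold TGATGNAA fell, or 31.3% of 265 without the 5 transporters, as did 22.7% of the 9423 others. The median differences were -0.02 and 0.00. Median transcript GC content was 46.9% and 49.1%, and with the GC and length trend of each library removed 31.2% and 24.5% fell. These shares are descriptions with no test. A search for TGACNNNGC, the core of the antioxidant response element bound by NRF2, matched 5 of the 9 genes (SLC3A2, SLC7A1, SLC7A5, SLC7A6 and SLC1A5) against 16.1% of all genes, and CACGTG, the E-box bound by MYC and MAX, matched 3 (SLC7A5, SLC1A5 and SLC43A1) against 8.77%. Of the genes with TGACNNNGC 4 of 5 fell, SLC7A6 being the exception, and of those with CACGTG 2 of 3, SLC43A1 being the exception. The part of any of these sequences in the falls was not tested.

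**Figure D1:**
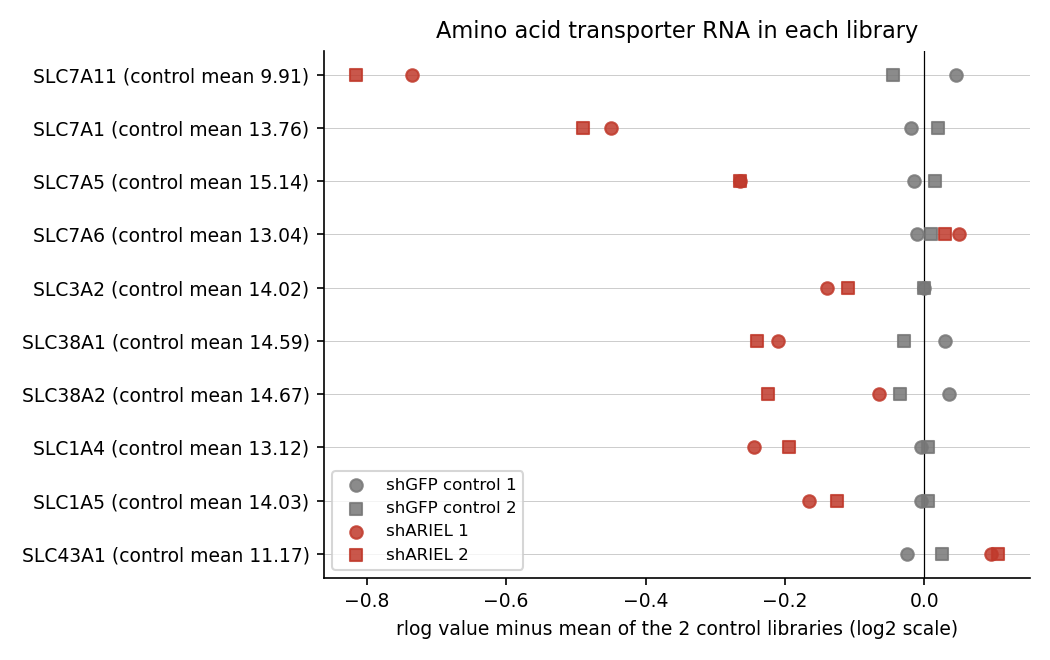
Each row is a transporter gene and each point a library, drawn as its rlog value minus the mean of the 2 control libraries (x axis, log2 scale), with control libraries in grey, knockdown libraries in red, replicate 1 as circles and replicate 2 as squares. Knockdown points lie to the left of both control points in 8 genes, farthest for SLC7A11, and to the right in SLC7A6 and SLC43A1.

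For SLC7A11, the cystine and glutamate exchanger, the control libraries read 9.96 and 9.87 on the rlog scale and the knockdown libraries 9.18 and 9.10. Both knockdown values lay far below both control values. The difference was -0.77 ± 0.05 (SE, 2 libraries a group; limma, adjusted p = 2.46e-55). By the authors' deposited table SLC7A11 was 3.18-fold lower (log2 fold change -1.67 ± 0.13, SE). It shares 8.97% of its exon bases with an antisense gene, SLC7A11-AS1, in GENCODE 29. The libraries are strand-specific per the labels, but whether counting used strand is not stated.

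SLC3A2, the heavy chain that SLC7A11 needs at the surface, moved much less. It read 14.02 in both control libraries, then 13.88 and 13.91 after knockdown. The difference was -0.13 ± 0.03 (SE; limma, adjusted p = 0.000268), and it was 1.17-fold lower in the authors' deposited table. SLC7A5, the leucine-importing light chain, went from 15.12 and 15.15 to 14.87 in both knockdown libraries. The difference was -0.27 ± 0.03 (SE; limma, adjusted p = 6.42e-16), and the authors' deposited table has it 1.4-fold lower. It shares 5.71% of its exon bases with the antisense gene AC126696.2. Of 4438 windows of 100 bases, the read length, along the SLC7A5 transcript, 1.83% also occur in SMG1P3 or SLC7A5P2, pseudogenes that could take some of its reads, and in the other 9 genes 0 windows are shared with another gene's transcripts.

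SLC7A6, the light chain that exchanges arginine for glutamine, did not fall. Control libraries read 13.03 and 13.05, knockdown libraries 13.09 and 13.07. The knockdown values were slightly higher, but the difference of 0.04 ± 0.03 (SE) did not pass (limma, adjusted p = 0.339). The authors' deposited table gives a log2 fold change of 0.07 ± 0.06 (SE). Once each library's trend with GC content and length was removed, it was called higher, at 0.08 ± 0.02 (SE; limma, adjusted p = 0.0024). Of its exon bases 44.4% overlap SLC7A6OS on the opposite strand, so the reads of the pair cannot be told apart if counting ignored strand.

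SLC7A1, the importer of arginine and lysine that works without SLC3A2, had the second largest fall. The control libraries read 13.74 and 13.78 and those with knockdown 13.31 and 13.27. The gap between the groups was far wider than the spread within them. The difference was -0.47 ± 0.03 (SE; limma, adjusted p = 2.04e-44), and by the authors' deposited table SLC7A1 was 1.79-fold lower (log2 fold change -0.84 ± 0.06, SE).

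The sodium-coupled glutamine carriers SLC38A1 and SLC38A2, both on chromosome 12, differed in how firmly they fell. SLC38A1 went from 14.62 and 14.56 to 14.38 and 14.35, a difference of -0.23 ± 0.03 (SE; limma, adjusted p = 1.22e-11; 1.33-fold lower in the authors' deposited table). SLC38A2 read 14.70 and 14.63 in control and 14.60 and 14.44 in knockdown libraries. Its first knockdown library lay just below the controls and its second well below, so its SD of 0.11 in that group was the widest of the 10 genes. The difference of -0.15 ± 0.03 (SE) was called by limma (adjusted p = 1.46e-05) with an SE that genes of that level share. The call was lost without knockdown replicate 2 (difference -0.07; limma, adjusted p = 0.185). The authors' deposited table does not call the gene either (log2 fold change -0.24 ± 0.14, SE; its adjusted p was 0.16), and without the GC and length trend the difference was -0.07 ± 0.02 (SE; limma, adjusted p = 0.0162).

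The neutral amino acid exchangers fell by moderate amounts. SLC1A4 went from 13.11 and 13.12 to 12.87 and 12.92, a difference of -0.22 ± 0.03 (SE; limma, adjusted p = 3.12e-10). SLC1A5, the glutamine importer of most proliferating cells, went from 14.03 and 14.04 to 13.87 and 13.91, a difference of -0.14 ± 0.03 (SE; limma, adjusted p = 8.19e-05). They were 1.33-fold and 1.19-fold lower in the authors' deposited table. SLC1A5 shares 23.4% of its exon bases with the antisense gene AC008622.2, so the same limit of strand holds for it. The replicates of each gene lay within a few hundredths of each other, closer than the distance between the groups.

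SLC43A1, the facilitated carrier of branched-chain amino acids, was the gene called higher. Control libraries read 11.14 and 11.19, and knockdown libraries 11.26 and 11.27, both above. The difference was 0.10 ± 0.04 (SE; limma, adjusted p = 0.037). This call stood close to the threshold and was lost in 7 of 15 alternatives, among them the authors' deposited table (log2 fold change 0.19 ± 0.08, SE; adjusted p = 0.0522), removal of the GC and length trend (difference 0.05; limma, adjusted p = 0.204) and leaving out control replicate 1 (0.221), knockdown replicate 1 (0.133) or knockdown replicate 2 (0.174). The authors' deposited table thus calls 7 of the 10 genes lower, 0 higher and 3 not at all, where 39.4% of its 14551 genes with an adjusted p passed, 19.3% lower and 20.1% higher.

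**Figure D2:**
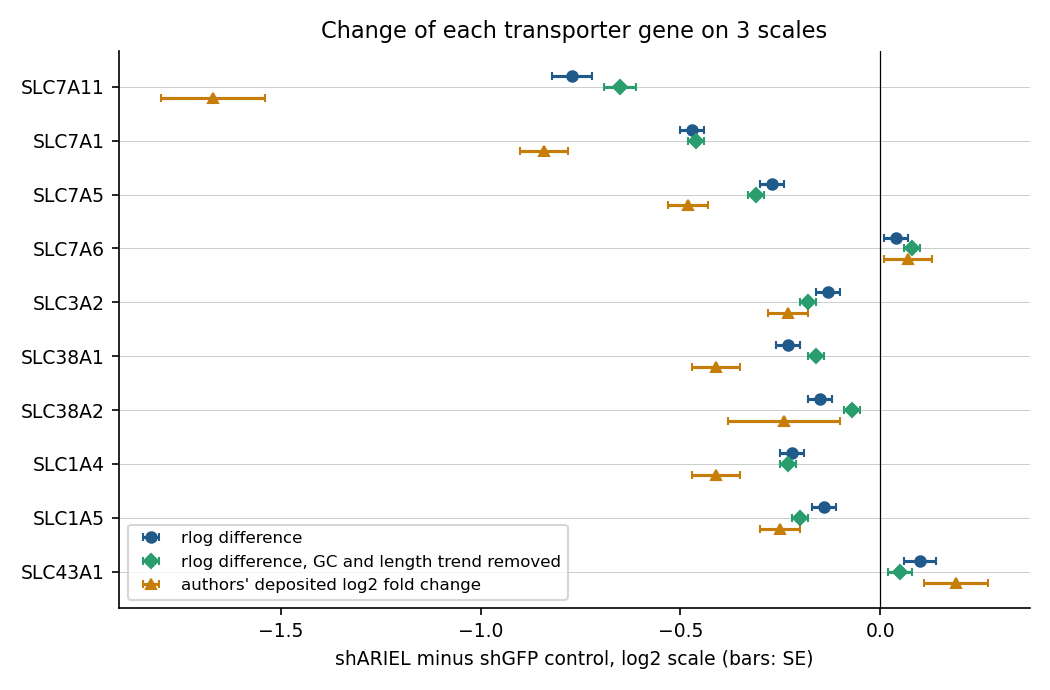
Each row is a transporter gene. Points give the difference between knockdown and control libraries as the rlog difference (circles), the rlog difference with the GC and length trend removed (diamonds) and the authors' deposited log2 fold change (triangles), on 1 log2 axis with bars for the SE. SLC7A11 lies at -0.77, -0.65 and -1.67, and SLC7A6 and SLC43A1 are the genes to the right of 0.

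Every call above rests on a spread shared between genes of similar level. With each gene's own variance on 2 libraries per group, none of the 10 genes passed (limma without sharing, adjusted p 0.0848 to 0.352), although 7 had an unadjusted p under 0.05, as did 31.2% of all tested genes.

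The 10 RNAs span a wide range of abundance. Per kilobase of the longest annotated transcript, control levels on the rlog scale ran from 12.95 ± 0.02 (SD, n = 2) for SLC7A5 and 12.87 ± 0.00 for SLC3A2, through SLC1A5 at 12.50 ± 0.01, SLC38A2 at 12.38 ± 0.05, SLC38A1 at 11.58 ± 0.04, SLC1A4 at 10.93 ± 0.01, SLC7A1 at 10.88 ± 0.02 and SLC7A6 at 10.38 ± 0.02, to SLC43A1 at 9.79 ± 0.04 and SLC7A11 at 6.64 ± 0.06. No neighbours in this order overlapped in the control libraries, though SLC1A4 and SLC7A1 were only 0.05 apart and the order depends on the transcript lengths chosen. In the knockdown libraries SLC3A2 (12.74 ± 0.02) stood above SLC7A5 (12.69 ± 0.00), and SLC7A6 and SLC7A1, both at 10.42, overlapped. SLC7A11 was thus the least abundant of the 10 transporters in both groups and the one with the largest difference in rlog, a scale that shrinks low genes the most.

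Since the genes fell by unequal amounts, their balance within each library shifted. The log2 ratio of SLC7A11 to SLC3A2 was -4.07 and -4.15 in control and -4.70 and -4.81 in knockdown libraries. That of SLC7A5 to SLC3A2 went from 1.10 and 1.13 to 0.99 and 0.96, so both fallen light chains lost ground against their heavy chain. SLC7A6 gained instead, its ratio to SLC3A2 going from -0.98 ± 0.02 (SD, n = 2) to -0.82 ± 0.03. Against SLC7A5 it went from -2.10 ± 0.01 to -1.79 ± 0.02, and against SLC7A1, the other arginine carrier, from -0.72 ± 0.01 to -0.22 ± 0.01. Between the exchangers the ratio of SLC1A4 to SLC1A5 moved by -0.09, and between the leucine carriers that of SLC43A1 to SLC7A5 from -3.97 ± 0.02 to -3.60 ± 0.00. SLC38A1 over SLC38A2 went from -0.08 in both controls to -0.22 and -0.10, so its second knockdown library lay close to the controls. The groups did not overlap in any of the 8 ratios computed, but an exact permutation test of 2 libraries against 2 cannot go below a two-sided p of 0.333, the value found for each. Since rlog shrinks genes by unequal amounts, these are ratios on that scale only.

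**Figure D3:**
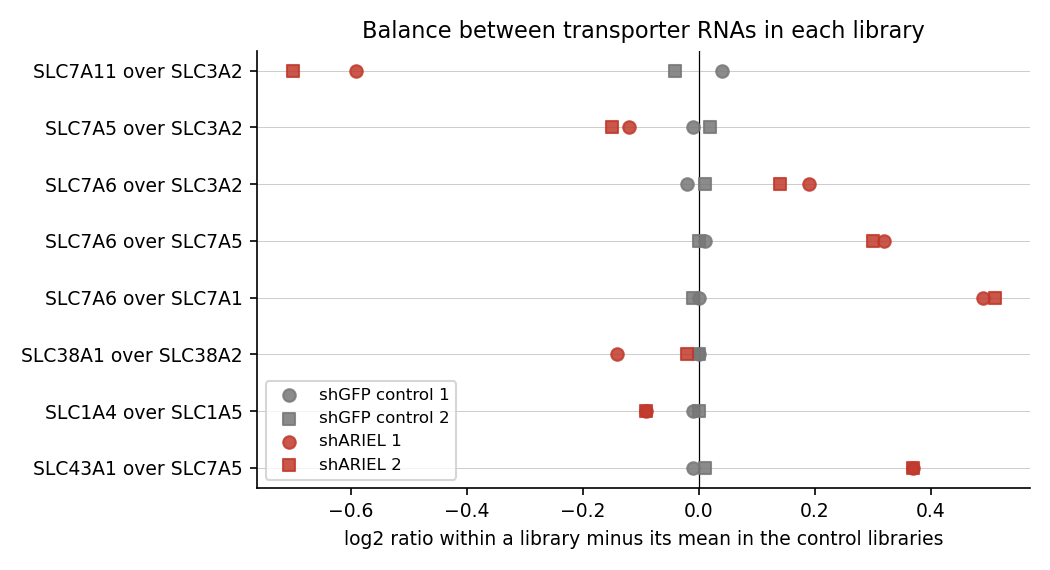
Each row is the log2 ratio between a pair of transporter RNAs within a library, drawn as its distance from the mean of the control libraries (x axis), with control libraries in grey and knockdown libraries in red. SLC7A11 over SLC3A2 moved farthest to the left, and SLC7A6 over SLC7A1 farthest to the right.

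GC content of the RNA moved with the comparison and touches these genes unequally. Over 12719 genes with a transcript in GENCODE 29, the median difference ran from -0.08 in the lowest decile of GC content to 0.08 in the highest. The control libraries differed from each other in the same order, from -0.06 to 0.04 as replicate 2 minus replicate 1. SLC7A11, with 35.4% GC, and SLC38A2, with 38.1%, lie in the lowest decile. SLC7A5 (61.1%) and SLC1A5 (61.3%) lie where the median was 0.06, so they fell against the direction of genes like them. Without the trend SLC7A11 differed by -0.65 ± 0.04 (SE), SLC7A1 by -0.46 ± 0.02, SLC7A5 by -0.31 ± 0.02, SLC1A4 by -0.23 ± 0.02, SLC1A5 by -0.20 ± 0.02, SLC3A2 by -0.18 ± 0.02 and SLC38A1 by -0.16 ± 0.02. All 7, and SLC38A2, were called lower, where 25.1% of genes were called lower and 27.7% higher in that fit.

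**Figure D4:**
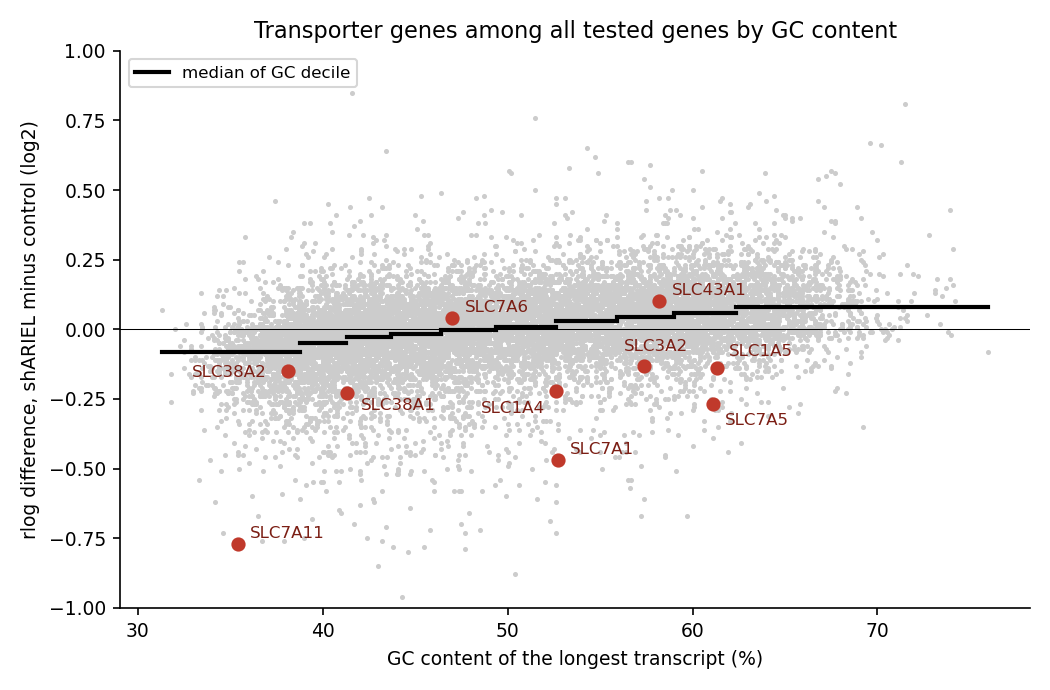
Each grey point is a tested gene, by the GC content of its longest transcript (x axis, percent) and its rlog difference between knockdown and control libraries (y axis, log2 scale), black bars are the medians of GC deciles, and 6 genes beyond 1 in size are not drawn. The transporters (red) lie below the bar at their GC content except SLC7A6 and SLC43A1.

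The 3′ UTRs of the 10 genes were searched for 4 words of 7 bases chosen with earlier results of these same libraries known. The search thus supports nothing about the words independently, and differences between their carriers and other genes are not shown here. GATGACA or AGATGAC was in the 3′ UTRs of 15.6% of 12510 tested genes. Of the transporters SLC7A1 and SLC43A1 held GATGACA once each, and the sites are shown as 30 bases of the GENCODE 29 transcript with the word in capitals.
SLC7A1: ttgtgtttcttGATGACAgactattaagtt
SLC43A1: caagggacctgGATGACAggcaatcaaggc
The first gene fell and the second rose. SLC7A11, with the largest fall, has a 3′ UTR of 7859 bases that holds none of the 4 words. The other words, TGTTGTC and GTTGTCA, found in 17.5% of genes, were in SLC7A1, SLC7A6 and SLC38A1, of which SLC7A1 and SLC38A1 fell.

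Other plasma-membrane amino acid transporters moved in both directions. Of 23 further genes 8 could be tested, of which 3 fell and 4 rose, with a median of 0.06, where 22.4% of all tested genes fell and 22.1% rose. Their difference from the 10 transporters was not tested. SLC43A2 (LAT4), a paralogue of SLC43A1, went from 10.61 ± 0.03 (SD, n = 2) to 10.99 ± 0.01, a rise of 0.38 ± 0.04 (SE; limma, adjusted p = 3.39e-17). SLC38A5, a glutamine carrier related to SLC38A1, rose by 0.28 ± 0.04, and the taurine carrier SLC6A6 by 0.25 ± 0.03. SLC7A7 (y+LAT1), the paralogue of SLC7A6, was scarce and fell by 0.26 ± 0.04, with values near 7. The others that passed were SLC16A10, higher, and SLC6A9 and SLC6A20, lower. Of 8 lysosomal amino acid transporters 2 fell and 1 rose, with the cystine exporter CTNS at 0.22 ± 0.05, MFSD12 at -0.21 ± 0.04 and the arginine sensor SLC38A9 at -0.09 ± 0.04 (limma, adjusted p = 0.0487), a call lost in 10 of 15 alternatives.

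**Figure D5:**
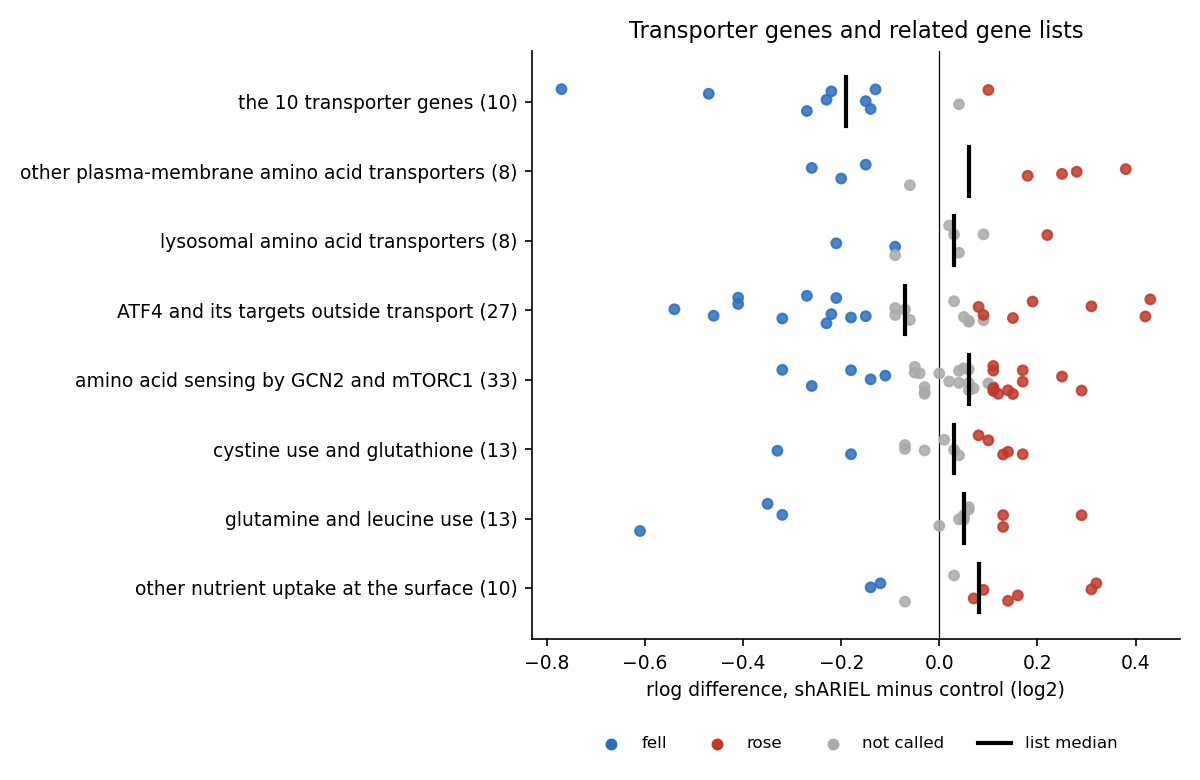
Each row is a gene list with the number of its genes tested, each point a gene at its rlog difference between knockdown and control libraries (x axis, log2 scale; vertical scatter has no meaning), colours give the call by limma and black bars the list medians. The bar of the 10 transporters lies at -0.19, and those of the other lists lie between -0.07 and 0.08.

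ATF4 itself fell. Control libraries read 15.82 and 15.78 and knockdown libraries 15.25 and 15.28. The difference was -0.54 ± 0.03 (SE; limma, adjusted p = 5.68e-60), and it was 1.95-fold lower in the authors' deposited table. Of 27 tested genes in the list of ATF4 and its known targets outside transport, 11 fell and 7 rose, against 22.4% and 22.1% of all tested genes, and the median was -0.07, against 0.00. VLDLR, a lipoprotein receptor, fell by 0.46 ± 0.04, whereas PPP1R15A, a phosphatase subunit that ends the stress response, rose by 0.43 ± 0.04 and DDIT3, which encodes the stress factor CHOP, by 0.42 ± 0.05. Without the GC and length trend, 14 of the 27 were lower and 7 higher, against 25.1% and 27.7% of all genes in that fit. ATF4 protein is set mainly by translation of its mRNA, which these data do not measure.

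The sensors of amino acid supply moved in both directions. Of 33 genes of the GCN2 and mTORC1 branches 5 fell and 12 rose (median 0.06), against 22.4% and 22.1% of all tested genes. The falls included the Rag GTPase gene RRAGC at -0.32 ± 0.05 (SE) and FNIP2 of the folliculin complex at -0.26 ± 0.04. The rises included the KICSTOR subunit gene KPTN at 0.29 ± 0.05 and the mTOR partner gene MLST8 at 0.25 ± 0.03. Of 13 tested genes listed for cystine use and glutathione, among them NFE2L2 and KEAP1, 2 fell and 5 rose (median 0.03). NFE2L2, which encodes the antioxidant factor NRF2, a known activator of SLC7A11, fell from 11.77 and 11.76 to 11.47 and 11.40, a difference of -0.33 ± 0.04 (SE; limma, adjusted p = 6.14e-16). NRF2 protein was not measured, and the part of NFE2L2 in the SLC7A11 fall was not tested. GGCT, of glutathione breakdown, fell by 0.18 ± 0.04, while GGT1, which cleaves glutathione outside the cell, rose by 0.17 ± 0.03 and thioredoxin reductase TXNRD1 by 0.14 ± 0.03.

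Enzymes that use the imported amino acids were even, with 3 of 13 lower and 3 higher (median 0.05). Over all tested genes 22.4% fell and 22.1% rose. ASS1, which makes argininosuccinate on the way to arginine, went from 9.15 and 9.13 to 8.57 and 8.50, a difference of -0.61 ± 0.05 (SE; limma, adjusted p = 3.67e-34), whereas ASL, the next enzyme of that route, rose by 0.29 ± 0.05. BCAT1, the cytosolic branched-chain aminotransferase, fell by 0.35 ± 0.03. Asparagine synthetase ASNS, which is also in the ATF4 list, fell by 0.32 ± 0.05. Surface proteins for other nutrients mostly rose, 6 of 10 against 2 that fell (median 0.08). The glucose transporter SLC2A1 rose by 0.32 ± 0.03, the lactate exporter SLC16A3 by 0.31 ± 0.03 and the nucleoside transporter SLC29A1 by 0.16 ± 0.03, while the transferrin receptor TFRC fell by 0.14 ± 0.03. The lower share of transporters and that of these nutrient proteins were not tested against each other.

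Among the 5 genes whose values ran closest to those of SLC7A11 over the 4 libraries were STK17B, PRKACB, CD38 and STAMBPL1. Likeness was the Euclidean distance between values less each gene's own control mean, and it ran from 0.0252 for STK17B to 0.0698 for STAMBPL1. The differences of these 4 genes lay between -0.75 ± 0.04 (SE) for CD38 and -0.80 ± 0.03 for STAMBPL1. With 2 libraries per group the measure mostly selects genes with a fall of the same size, and it is a description only.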

How the data were processed

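Each gene and library has 1 rlog value, which the authors deposited on the log2 scale, per the file headers. Beside it the authors deposited a log2 fold change, its standard error, a test score, a p-value and an adjusted p. DESeq2 1.12.4, HTSeq 0.6.1, STAR 2.5.2a and the build hg19 appear in the submitters' processing notes, with no role or order. Annotation and size factors are not stated, and counts were not used here, so depth and counting error are unknown. Groups and replicate numbers come from sample titles.

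limma 3.58.1 (R 4.3.3; lmFit, then eBayes with trend) was fitted to the rlog values of all 14601 rows with a mean of at least log2 of 10, with no pseudocount. P-values were adjusted by Benjamini-Hochberg over those rows, with calls at 0.05. Its prior degrees of freedom came out infinite, so genes of a level share 1 spread. The fit was tested on simulated data. GC content and length came from the longest GENCODE 29 basic transcript of each gene, and their trend was removed per library by splines with 5 degrees of freedom each. Figures and tables used Python 3.11.15, pandas 2.3.3, scipy 1.17.1 and matplotlib 3.10.9.

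The 10 genes, the 9 gene lists beside them and the words searched for were chosen with earlier results of these data known. Named genes are the 10 transporters, up to 4 called genes per list with the largest differences and groups that do not overlap, all called markers, the 5 genes nearest to SLC7A11 (1 of which is not reported here) and the targeted locus. SLC16A10, SLC6A9, SLC6A20, CD3D, CD3E and LCK were named after their values were seen. Alternatives changed the filter, the scaling, the variance model, the replicate block, the GC and length trend and the libraries used. The authors' deposited test served as a further one.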

Additional observations from a re-analysis of the deposited data

How the results depend on the processing

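The 8 falls among the transporters were called in every limma alternative that shares the spread between genes, except that SLC38A2 was lost without shARIEL replicate 2. It was also lost in the authors' deposited test, which called 7 of the 10 transporters lower and 0 higher. With each gene's own variance 0 transporters were called, 0 genes of any list around them and 0 of all 14601 genes, with 4561 at an unadjusted p under 0.05. No alternative reversed the direction of any gene followed through all of them, the 10 transporters included. SLC16A10, SLC6A9, SLC6A20, CD3D, CD3E, LCK and KEAP1 were named but not followed in this way. Of these, CD3D and KEAP1, neither of them called, each differed by 0.01 in the main fit. After each library was corrected for GC and length, each differed by -0.04. Leaving out 1 library, with the lone library of its group assumed to vary like the others, gave 7 to 9 transporters called (7 to 8 lower, 0 to 1 higher), 51 to 64 of the 111 tested list genes where 65 were called with all libraries, and 4225 to 6188 genes in all. Without shARIEL replicate 2 those were 4225 genes against 6488, of which 2004 were higher against 3224 (2004 to 3061 over the libraries left out). The count of 2 lysosomal transporters lower became 1, through SLC38A9, with no filter, no trend on level, quantile normalization, median centring, the GC and length trend removed with or without the replicate block, the authors' deposited test, and without shGFP control replicate 1 or shARIEL replicate 2, and it ranged from 1 to 3 over the libraries left out. A robust sharing of the spread, added after seeing the data, called 9 transporters.

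The replicate numbers are not said to pair the libraries. Deviations of same-numbered libraries had a correlation of 0.198 over 14601 genes, and -0.00378 once the GC and length trend was removed. With the replicate block 7426 genes were called, and 8 transporters were lower and 1 higher. With the block and the trend removed 6723 genes were called, and SLC7A6 was called higher (0.08; limma, adjusted p = 0.00185) in place of SLC43A1.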
